A study of Mus musculus with 12 samples.

Results

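The genes described here encode the central kinase of the mTORC1 complex and the proteins that switch it on and off: *Mtor* and *Rptor* of the complex itself, *Tsc1*, *Tsc2* and *Rheb* of the growth factor branch, *Rragc* and *Rragd* of the amino acid branch, and the stress-induced inhibitors *Sesn1*, *Sesn2* and *Ddit4*. They were chosen by symbol, for their place in nutrient signalling downstream of AMPK. The rule itself uses no measured value, but earlier results of these data were known when the 10 were listed. All 10 symbols were among the 12960 genes of the counts, and all 10 were among the 10822 genes that passed the low-count filter and were tested.

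mTORC1 is a kinase complex that drives protein and lipid synthesis and holds back autophagy when nutrients are plentiful. Its scaffold raptor, encoded by *Rptor*, brings substrates to mTOR. *Rheb*, a small GTPase on the lysosome, activates the kinase, and the complex of TSC1 and TSC2 (hamartin and tuberin) switches *Rheb* off. Amino acids act through a heterodimer in which RagA or RagB pairs with RagC or RagD and recruits mTORC1 to the lysosomal surface. Sestrins bind the GATOR2 complex and keep this branch off when leucine is scarce, and REDD1, the product of *Ddit4*, favours TSC2 under hypoxia and glucocorticoids. AMPK, the cell's energy sensor, phosphorylates both TSC2 and raptor and so restrains mTORC1. Those are changes in proteins, and only transcript levels were measured here.

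Bone marrow-derived macrophages (BMDMs), primary macrophages grown from mouse marrow for 7 days with L929 medium as a source of M-CSF, came from wildtype (WT) mice or from AMPKβ1-/- mice, which lack the β1 subunit of AMPK in the whole body. Each genotype was treated for 6 h with 10 µM PF-06409577 (PF), an activator selective for AMPK complexes that hold β1, or with vehicle, 0.1% DMSO, and no other agent is named for any group. RNA sequencing gave 3 libraries per group, numbered 1 to 3. The age and strain of the marrow donors and the number of mice behind the libraries are not given in the sources used here, so p values measure the spread between these libraries, which may be technical.

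The libraries held 8935609 to 14358180 counts. Values are in CPM, the counts of a gene scaled to a common, TMM-normalized library size, with standard deviations (SD) over the 3 libraries of a group. *Prkab1*, the gene of AMPKβ1, was at 37.3 to 45.3 CPM in the 6 WT libraries and at 6.05 to 9.42 CPM in the 6 AMPKβ1-/- libraries. All 10 macrophage markers were present and summed to 27870 to 30950 CPM in WT vehicle, 26120 to 28750 in WT PF, 26820 to 30280 in AMPKβ1-/- vehicle and 27920 to 28190 in AMPKβ1-/- PF libraries. With PF in WT 4 of these 10 markers fell (edgeR, 8.95% of all tested genes). Between the genotypes 7 were called with vehicle, against 59.7% of all tested genes, 2 higher and 5 lower in AMPKβ1-/- BMDMs. On the log2 scale the 2 higher markers were *Adgre1* (0.25) and *Itgam* (0.23), and the lower ones included *Cd68* (-0.72) and *Spi1* (-0.44). With PF 5 were called, 3 higher and 2 lower, against 47.1% of all tested genes. The part of these markers in the results below was not tested. The other lists were low or absent, and *Ly6g*, *Elane*, *Cd3e* and *Xcr1*, defining genes of granulocytes, lymphocytes and dendritic cells, were not among the counts. The sums were 0.424 to 1.39 CPM for 5 of 8 granulocyte, 0.279 to 1.28 CPM for 3 of 5 dendritic cell, 0 to 0.187 CPM for 1 of 6 lymphoid and 0 to 1.10 CPM for 1 of 5 erythroid markers. Osteoclast markers, of which 4 of 5 were present, summed to 21.3 to 29.5 CPM in WT and to 14.5 to 17.3 CPM in AMPKβ1-/- libraries, and fibroblast markers (5 of 6 present) to between 0.923 and 8.66 CPM, the highest in an AMPKβ1-/- vehicle library, with a part in the values below that was not tested. In such bulk samples fewer cells of a type and less RNA per cell cannot be told apart. The slope of gene counts on GC content was not the same in all libraries. Each gene's log2 CPM was taken relative to its mean over the 12 libraries, so the slopes only compare libraries with each other. Per 10 percentage points of GC, this relative value changed by 0.357 to 0.717 in WT vehicle and by -0.0516 to 0.368 in WT PF libraries. It changed by -0.356 to -0.101 in AMPKβ1-/- vehicle and by -0.512 to -0.331 in AMPKβ1-/- PF libraries. WT vehicle library 1 stood highest and WT PF library 3 lowest among WT libraries. This slope moved with both genotype and treatment, and its part in a result cannot be told apart from theirs by the design. GC-adjusted values, from a fit that subtracts each library's spline trend in GC content and transcript length, therefore stand beside each call of the 10 genes below.

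The 4 genes called with PF in WT BMDMs are shown first by the DNA upstream of their start sites, since transcript levels are what was measured. Of these, *Tsc2* and *Sesn2* were no longer called after GC adjustment (adjusted p = 0.261 and 0.237 from edgeR). RefSeq promoter windows on GRCm38.p6, of 250 bases before and 50 after a start site, were found for all 10 genes (11 windows). The runs below are read 5′ to 3′ on the gene's own strand and leave out bases inside the annotated gene. Those of *Rragc* (chr4:123917183-123917432, plus strand) and *Rragd* (chr4:32982748-32982997, plus strand) precede the genes that rose, and those of *Tsc2* (chr17:24632631-24632877, minus strand) and *Sesn2* (chr4:132510502-132510706, minus strand) the genes that fell. Capitals mark an E-box.
Rragc: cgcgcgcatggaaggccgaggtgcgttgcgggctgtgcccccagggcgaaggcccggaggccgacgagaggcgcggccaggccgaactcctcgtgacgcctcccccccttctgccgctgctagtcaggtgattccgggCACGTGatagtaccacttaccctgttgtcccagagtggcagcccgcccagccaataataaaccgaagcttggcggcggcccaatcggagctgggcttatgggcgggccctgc
Rragd: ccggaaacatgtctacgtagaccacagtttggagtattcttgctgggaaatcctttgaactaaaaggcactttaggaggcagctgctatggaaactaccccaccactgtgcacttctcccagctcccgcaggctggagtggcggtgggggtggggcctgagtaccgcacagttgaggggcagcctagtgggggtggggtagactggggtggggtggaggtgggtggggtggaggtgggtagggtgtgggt
Tsc2: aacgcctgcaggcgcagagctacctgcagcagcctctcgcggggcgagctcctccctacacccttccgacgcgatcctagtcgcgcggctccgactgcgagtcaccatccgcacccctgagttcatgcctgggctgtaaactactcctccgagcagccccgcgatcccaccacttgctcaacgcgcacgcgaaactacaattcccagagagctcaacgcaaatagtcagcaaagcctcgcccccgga
Sesn2: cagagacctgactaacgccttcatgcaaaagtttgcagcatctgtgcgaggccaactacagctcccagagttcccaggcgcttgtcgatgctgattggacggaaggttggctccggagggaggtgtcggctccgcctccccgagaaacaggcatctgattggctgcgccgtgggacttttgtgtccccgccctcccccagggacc

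The E-box CACGTG, the core of the sites bound by the lysosomal regulators TFEB and TFE3, lay 112 to 107 bases before the start of *Rragc* and 96 to 91 bases before that of *Rheb*, and in no window of the other 8 genes. It was present in 7.15% of all 32851 RefSeq windows of the same length. The longer form TCACGTGA (0.974% of windows), the ATF4 element TGATGNAA (3.97%) and the palindromic glucocorticoid response element (0.00913%) had no match in a window of the 10 genes. The hypoxia element ACGTG (19.6% of windows), which overlaps CACGTG, was found in the windows of *Rptor*, *Rheb*, *Rragc* and *Ddit4*, and the FOXO element GTAAACA (3.65%) in that of *Sesn1*. Both strands were searched, and a match describes the letters, not binding.

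In vehicle-treated WT BMDMs the 10 transcripts spanned a wide range. On the scale of CPM per kilobase of the longest transcript, which allows genes to be compared, *Rragc* was highest at 73.3 ± 2.89 (SD, n = 3), followed by *Sesn1* at 48.3 ± 5.81. *Tsc2* (27.9 ± 2.89) and *Rptor* (27.1 ± 3.23) came next, and these neighbours did not differ beyond their spread. *Rheb* was at 15.98 ± 2.34 and *Mtor* at 10.8 ± 1.35. *Sesn2* (7.74 ± 0.487) and *Tsc1* (7.15 ± 0.827) overlapped, *Rragd* was at 1.82 ± 0.426, and *Ddit4* was lowest at 0.750 ± 0.221. *Rragc* thus stood 35.2 to 52.6 times above its paralog *Rragd* per kilobase in the WT vehicle libraries, and *Sesn1* 5.56 to 7.22 times above *Sesn2*. *Ddit4* rested on 6 to 18 counts per library, so that its values carry little precision, while every other gene had at least 63 counts in each library.

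**Figure D1:**
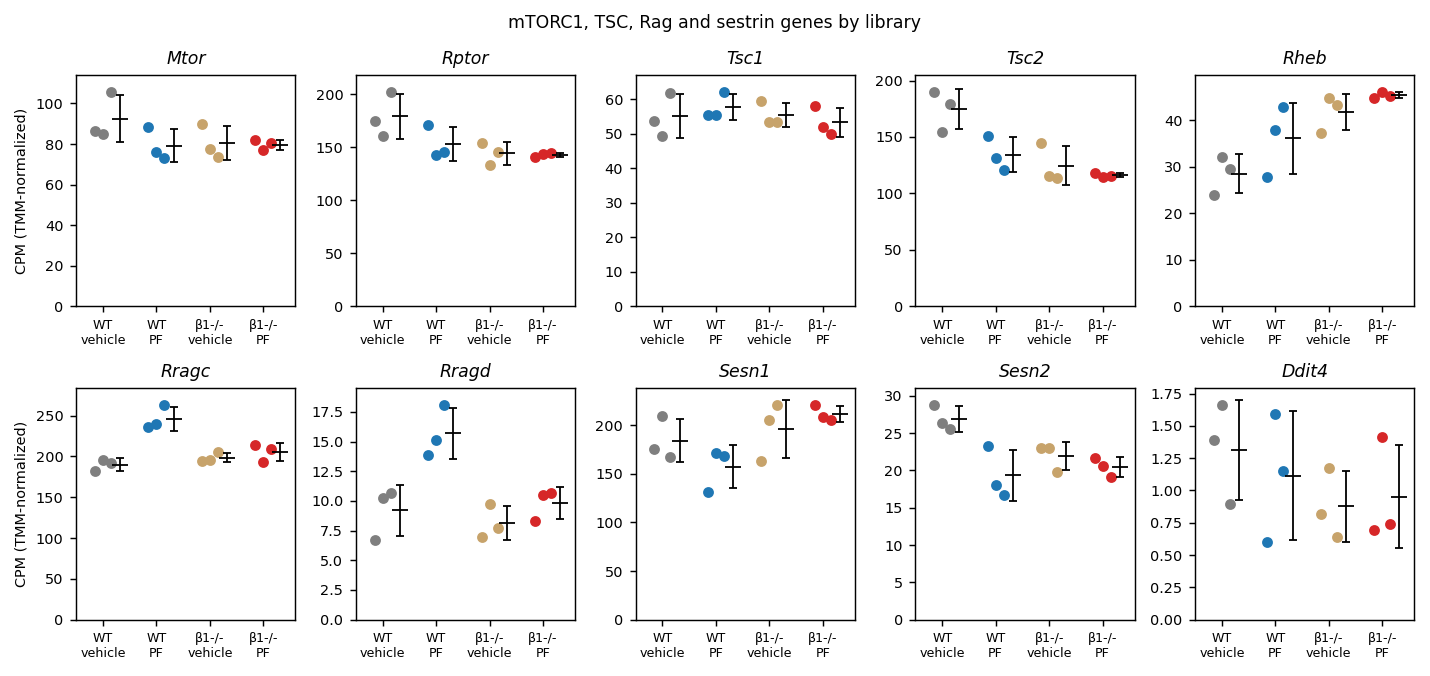
TMM-normalized CPM of each gene (y axis, linear, from 0) in every library, by group (x axis; grey WT vehicle, blue WT PF, tan AMPKβ1-/- vehicle, red AMPKβ1-/- PF), with bars for the mean ± SD of 3 libraries. Rragc and Rragd lie higher, and Tsc2 and Sesn2 lower, in every WT PF library than in every WT vehicle library.

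The first question was whether PF changed these transcripts in WT BMDMs. The 4 groups of libraries entered 1 fit of edgeR's quasi-likelihood test, with Benjamini-Hochberg adjustment over the 10822 tested genes, and a gene was called at an adjusted p below 0.05. With PF, *Rragc* and *Rragd* rose and *Tsc2* and *Sesn2* fell, and the other 6 genes did not pass. None of the 4 reached the log2 fold change of 0.8 that the study's methods also required, which 1.52% of all tested genes did. Among all tested genes 15.9% were called (6.99% higher, 8.95% lower), against 4 of these 10. After GC adjustment 7.36% of all tested genes and 2 of the 10 were called. Libraries did not overlap for 32.2% of all tested genes and for 4 of 10 here. The median log2 fold change was -0.225 over the 10 genes and 0.00483 over all tested genes.

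*Rragc*, the GTPase that partners RagA or RagB, lies at chr4:123917446-123936997. Its values were 182, 196 and 193 CPM in the WT vehicle libraries and 236, 240 and 263 CPM in the WT PF libraries. The groups did not overlap, and their means were 190 ± 7.48 and 246 ± 14.6 CPM. This was a 1.30-fold rise (log2 fold change 0.37, SE 0.0724, 95% interval 0.221 to 0.528, adjusted p = 0.0057 from edgeR). The call held without any single WT library and after GC adjustment (0.26, adjusted p = 0.0058).

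*Rragd*, the less abundant paralog at chr4:32983037-33022180, had 6.74, 10.2 and 10.7 CPM with vehicle and 13.9, 15.2 and 18.1 CPM with PF in WT BMDMs. The PF libraries all lay above the vehicle libraries, among which library 1 was the lowest. *Rragd* rose 1.70-fold (log2 fold change 0.77, SE 0.184, 95% interval 0.375 to 1.16, adjusted p = 0.0161). After GC adjustment the rise was 0.59 (adjusted p = 0.0159), whereas the call was lost without WT vehicle library 1 (adjusted p = 0.0634) or without WT PF library 3 (0.0769). Per kilobase, the ratio of *Rragd* to *Rragc* was 0.0190 to 0.0284 in WT vehicle and 0.0302 to 0.0353 in WT PF libraries, so the share of the rarer paralog was higher in each PF library.

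*Tsc2* encodes tuberin, the subunit that acts on *Rheb*, and lies at chr17:24595816-24632630, where its end overlaps *Pkd1* on the opposite strand by 693 bases. It was at 190, 155 and 179 CPM in WT vehicle and at 151, 131 and 121 CPM in WT PF libraries. The closest libraries of the groups, WT vehicle library 2 and WT PF library 1, were 155 and 151 CPM. *Tsc2* fell by 0.38 on the log2 scale (SE 0.107, adjusted p = 0.0293), with means of 175 ± 18.1 and 134 ± 15.4 CPM. The call was lost without WT vehicle library 1 (adjusted p = 0.111) or 3 (0.0818), without WT PF library 2 (0.0937) or 3 (0.144), when fitted on WT libraries only (0.0745), and after GC adjustment, which left a log2 fold change of -0.15 (adjusted p = 0.261).

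Its partner *Tsc1*, which stabilizes tuberin, did not follow. *Tsc1* was at 53.8, 49.5 and 62.0 CPM with vehicle and at 55.5, 55.6 and 62.2 CPM with PF (log2 fold change 0.07, 95% interval -0.141 to 0.28, adjusted p = 0.625), and the libraries overlapped. The ratio of *Tsc1* to *Tsc2* per kilobase was 0.230, 0.260 and 0.281 in WT vehicle libraries and 0.299, 0.344 and 0.420 in WT PF libraries, without overlap. This ratio was not GC-adjusted, and *Tsc1* (51.7%) and *Tsc2* (54.7%) differ in GC content. *Rheb*, the GTPase that the TSC complex inactivates, had 23.95, 32.1 and 29.5 CPM with vehicle and 27.9, 37.9 and 42.9 CPM with PF. These libraries overlapped, and the log2 fold change of 0.34 (SE 0.143) did not pass (adjusted p = 0.102), except without WT PF library 1 (0.00946).

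*Sesn2*, a sestrin gene at chr4:132492032-132510501, was at 28.8, 26.4 and 25.5 CPM in WT vehicle and at 23.2, 18.1 and 16.7 CPM in WT PF libraries. All PF libraries were below all vehicle libraries, and *Sesn2* fell by 0.48 on the log2 scale (SE 0.127, adjusted p = 0.0235). Leaving out WT vehicle library 1 (adjusted p = 0.0857), WT PF library 2 (0.0888) or WT PF library 3 (0.128) ended the call, as did fitting WT libraries only (0.0799) and GC adjustment (-0.21, adjusted p = 0.237). *Sesn1*, its paralog, was at 175, 209 and 167 CPM with vehicle and at 132, 172 and 168 CPM with PF. The groups overlapped and the log2 fold change of -0.23 (SE 0.122) did not pass (adjusted p = 0.196).

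*Ddit4* was near the limit of these libraries, at 1.39, 1.66 and 0.896 CPM with vehicle and 0.600, 1.59 and 1.154 CPM with PF. Its log2 fold change of -0.25 had a 95% interval of -1.11 to 0.60, so changes inside that interval were not excluded by these libraries. A library's limit for a gene with no count, 3 counts, was 0.196 to 0.321 CPM, which covers counting error only.

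*Mtor* and *Rptor* did not pass the test with PF. *Mtor*, the kinase, was at 86.4, 85.1 and 106 CPM with vehicle and at 88.4, 76.2 and 72.9 CPM with PF (log2 fold change -0.22, SE 0.105, adjusted p = 0.141). *Rptor*, the scaffold, was at 174, 160 and 202 CPM with vehicle and at 171, 143 and 145 CPM with PF (-0.23, SE 0.0955, adjusted p = 0.107). In both genes WT PF library 1 lay within the vehicle range and the other PF libraries below it. Without that library both passed (adjusted p = 0.0428 and 0.0257), *Rptor* also passed without WT vehicle library 2 (0.0472), and after GC adjustment both log2 fold changes were slightly positive (0.01 and 0.06).

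**Figure D2:**
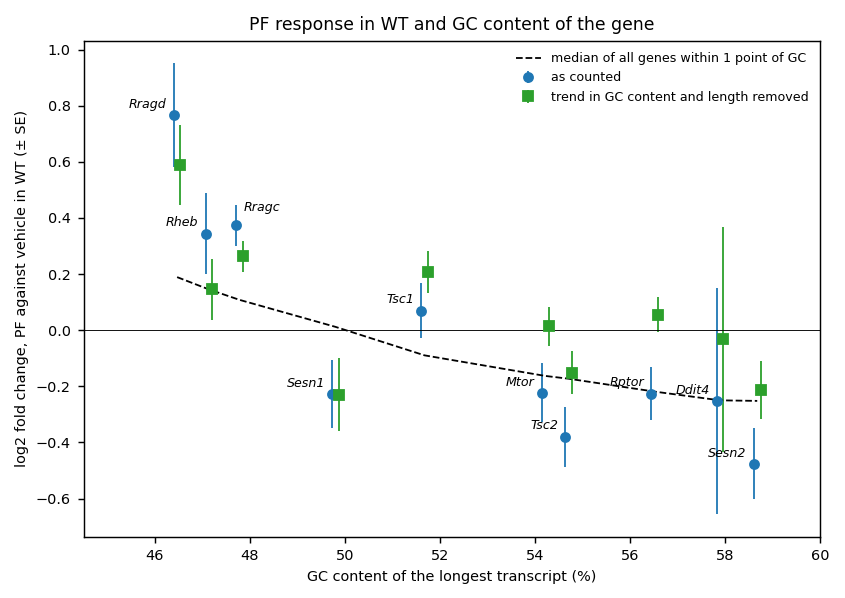
Log2 fold change of PF against vehicle in WT (y axis, ± SE) against the GC content of the longest transcript in percent (x axis), as counted (blue) and GC-adjusted (green); the dashed line is the median of all tested genes within 1 percentage point of GC. Rragd and Rragc stay above 0 in both versions, and Mtor and Rptor move from below to above 0.

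Around these genes, the median log2 fold change of all tested genes of like GC content fell as GC content rose. The 10 genes followed it only in part. *Rragd* (46.5% GC), *Rheb* (47.1%) and *Rragc* (47.8%) had positive log2 fold changes, and the median over all tested genes within 1 percentage point was 0.19, 0.14 and 0.11. Around *Tsc2* (54.7%), *Rptor* (56.5%), *Ddit4* (57.9%) and *Sesn2* (58.7%) that median was -0.17, -0.22, -0.25 and -0.25. Around *Mtor* (54.2%), *Tsc1* (51.7%) and *Sesn1* (49.8%) it was -0.16, -0.09 and 0.01. *Tsc1* at 0.07 and *Sesn1* at -0.23 had the opposite sign to the median of their like-GC genes. Relative to genes of like GC content, *Rragd* was higher by 0.58, *Rragc* by 0.27, *Rheb* by 0.20 and *Tsc1* by 0.16. *Sesn1*, *Sesn2*, *Tsc2* and *Mtor* differed by -0.24, -0.22, -0.21 and -0.06. For *Rptor* and *Ddit4* the difference was -0.00667 and -0.00292.

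The next comparison asked whether PF acted on these genes where AMPKβ1 is missing. In AMPKβ1-/- BMDMs edgeR called 0 of the 10 genes (adjusted p from 0.982 to 0.991), 0 had an unadjusted p below 0.05 (4.98% of all tested genes), and DESeq2 and limma-voom likewise called 0, against 0.0554% of all tested genes called by edgeR. *Rragc* was at 195, 196 and 205 CPM with vehicle and at 214, 193 and 209 CPM with PF, which overlapped (log2 fold change 0.05, 95% interval -0.104 to 0.203). *Rragd* was at 6.93, 9.72 and 7.74 CPM with vehicle and at 8.28, 10.5 and 10.7 CPM with PF (0.26, interval -0.144 to 0.665). *Tsc2* was at 145, 116 and 113 CPM with vehicle and at 118, 115 and 115 CPM with PF (-0.10, interval -0.331 to 0.126). *Sesn2* was at 22.97, 23.02 and 19.8 CPM with vehicle and at 21.6, 20.7 and 19.1 CPM with PF (-0.11, interval -0.374 to 0.164). The *Rheb* libraries alone did not overlap, at 37.3 to 44.7 CPM with vehicle and 44.9 to 46.2 CPM with PF, 1 of these 10 genes against 14.5% of all tested genes, and the log2 fold change of 0.12 did not pass.

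**Figure D3:**
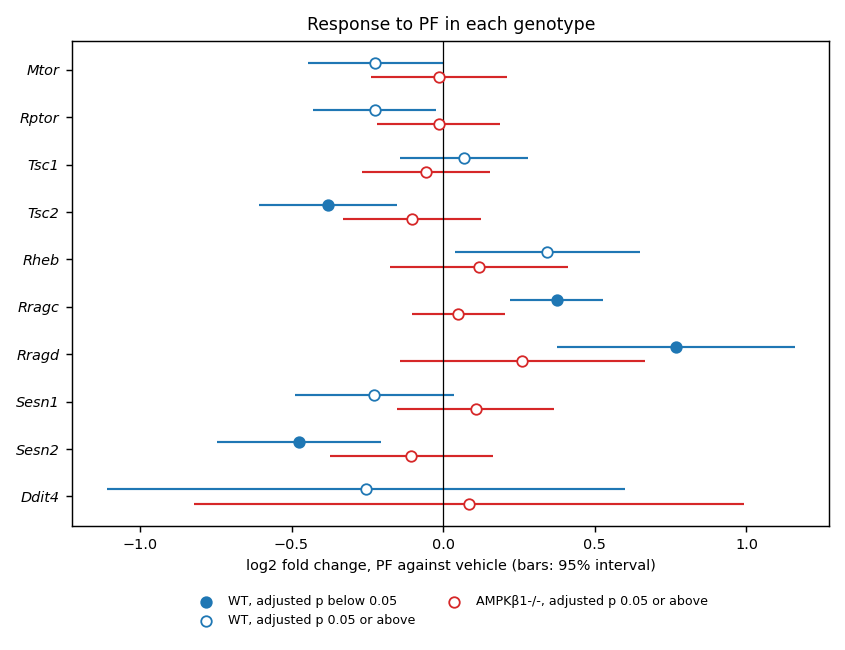
Log2 fold change of PF against vehicle (x axis, with 95% intervals) for each gene (y axis) in WT and in AMPKβ1-/- BMDMs, filled where the adjusted p was below 0.05. The 4 filled points are Rragc, Rragd, Tsc2 and Sesn2 in WT, and none is filled in AMPKβ1-/- BMDMs.

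Whether the responses of the genotypes differed was tested by the interaction, WT minus AMPKβ1-/-. edgeR called 0 of the 10 genes, against 0.416% of all tested genes, and DESeq2 and limma-voom also called 0. An unadjusted p below 0.05 was found for 1 of the 10 and for 14.3% of all tested genes. The gene was *Rragc*, whose response in WT exceeded that in AMPKβ1-/- BMDMs by 0.32 on the log2 scale (SE 0.102), with an adjusted p of 0.173 from edgeR. For *Rragd* the difference was 0.51 (SE 0.265, adjusted p = 0.402), for *Sesn2* -0.37 (SE 0.179, 0.362), for *Sesn1* -0.33 (SE 0.172, 0.398) and for *Tsc2* -0.28 (SE 0.152, 0.426). The responses of the 4 genes called in WT were therefore not shown to differ between genotypes.

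The genotypes were also compared with each other, under vehicle and under PF. These comparisons share their libraries with those above. With vehicle, *Rheb* was higher and *Tsc2* and *Rptor* were lower in AMPKβ1-/- BMDMs, 3 of the 10 genes against 59.7% of all tested genes. The groups did not overlap for 4 of the 10 genes, the 3 called and *Sesn2*, against 62.9% of all tested genes. The number of all tested genes called fell from 6465 to 3696 after GC adjustment (34.2%).

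*Rheb* was at 23.95 to 32.1 CPM in WT and at 37.3 to 44.7 CPM in AMPKβ1-/- vehicle libraries, 1.46-fold higher without AMPKβ1 (log2 fold change 0.55, SE 0.142, adjusted p = 0.00391). *Tsc2* was at 155 to 190 CPM in WT and at 113 to 145 CPM in AMPKβ1-/- BMDMs (-0.49, SE 0.107, adjusted p = 0.00127). *Rptor* was at 160 to 202 CPM in WT and at 133 to 154 CPM in AMPKβ1-/- BMDMs (-0.31, SE 0.0957, adjusted p = 0.0108). After GC adjustment all 3 remained called, at 0.42, -0.41 and -0.19, and *Rragd* (-0.59, adjusted p = 0.00631) and *Mtor* (-0.22, 0.0223) were called as well, 5 genes in all against 34.2% of all tested genes in that fit. The call of *Rptor* was lost without WT vehicle library 3 (adjusted p = 0.0612) or AMPKβ1-/- vehicle library 2 (0.0615), and when counts were scaled by library size alone (0.335). *Sesn2* was at 25.5 to 28.8 CPM in WT and at 19.8 to 23.02 CPM in AMPKβ1-/- BMDMs, and did not pass (-0.29, SE 0.126, adjusted p = 0.0589), with a GC-adjusted value of the opposite sign (0.09).

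With PF, *Rragd* (13.9 to 18.1 CPM in WT, 8.28 to 10.7 CPM in AMPKβ1-/-) and *Rragc* (236 to 263 against 193 to 214 CPM) were lower, and *Sesn1* (132 to 172 against 205 to 221 CPM) was higher in AMPKβ1-/- BMDMs. That other genes were called here than with vehicle is no test of a difference, which is the interaction above. Their log2 fold changes were -0.68 (SE 0.181, adjusted p = 0.00654), -0.26 (SE 0.0721, 0.00786) and 0.43 (SE 0.122, 0.0103). These were 3 of the 10 genes against 47.1% of all tested genes, and 5 of 10 did not overlap (*Rheb* and *Tsc2* in addition) against 59.9%. *Rheb* was higher by 0.33 on the log2 scale (adjusted p = 0.0645) and passed with DESeq2 (0.0496), limma-voom (0.048), library size alone (0.0318), after GC adjustment (0.00861) and without WT PF library 3 (0.0111), and *Tsc2* was at -0.21 (0.115). The call of *Rragc* was lost with scaling by library size alone (-0.12, adjusted p = 0.236). After GC adjustment the 3 were at -0.97, -0.25 and 0.47 and 8 of the 10 were called, 2 higher and 6 lower, against 38.0% of all tested genes in that fit. In the unadjusted fit without WT PF library 3 the number was 5. Over the unadjusted fits that left out 1 library, 3910 to 5452 of all tested genes were called.

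**Figure D4:**
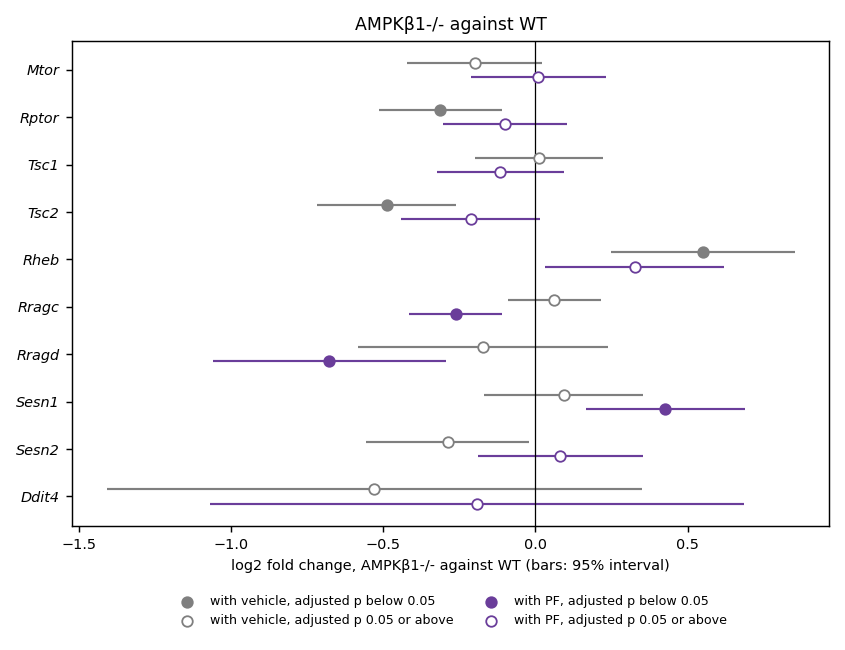
Log2 fold change of AMPKβ1-/- against WT BMDMs (x axis, with 95% intervals) for each gene (y axis), with vehicle (grey) and with PF (purple), filled where the adjusted p was below 0.05. Rptor, Tsc2 and Rheb are filled with vehicle, and Rragc, Rragd and Sesn1 with PF.

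Per kilobase, the ratio of *Tsc1* to *Tsc2* was 0.335 to 0.384 in AMPKβ1-/- vehicle and 0.353 to 0.401 in AMPKβ1-/- PF libraries, which overlapped each other and the WT PF libraries. All 6 AMPKβ1-/- libraries were above the highest WT vehicle library at 0.281. Ratios of paired genes were not GC-adjusted here or above, and overlap was not counted for other gene pairs. The ratio of *Rptor* to *Mtor* was 2.45 to 2.62 in WT vehicle and 2.22 to 2.57 in AMPKβ1-/- vehicle libraries, which overlapped.

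For the 3 genes with the smallest p in the WT comparison, the tested genes with the most similar log2 CPM over the 12 libraries were sought, as a description. *Rragc* was nearest to *Slamf7*, a receptor of the SLAM family (r = 0.961), *Arl8b*, a GTPase that moves lysosomes (0.955), and *Emp1* (0.935). *Rragd* was nearest to *Optn*, the autophagy receptor optineurin (0.934), *Plpbp* (0.933) and *Cd200r4* (0.914). *Sesn2* was nearest to *Vasp*, a regulator of actin (0.934), *Daglb* (0.933) and the kinase gene *Rps6ka1* (0.931). These genes share the libraries and their groups. Their GC content was 43.4% to 46.0% beside *Rragc* (47.8%), 40.9% to 50.7% beside *Rragd* (46.5%) and 51.9% to 58.0% beside *Sesn2* (58.7%). The part of GC content in these correlations was not tested.

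The remaining genes of the pathway were taken from lists of its complexes, inputs and targets, 101 genes besides the 10, of which 95 were in the counts and 92 were tested. With PF in WT BMDMs 7 rose and 9 fell, 17.4% against 15.9% of all tested genes, and their median was 0.03 on the log2 scale. In AMPKβ1-/- BMDMs edgeR called 0 of them (3 at an unadjusted p below 0.05), and in the interaction 0 (15 unadjusted, 1 by DESeq2). Only 2 of the 16 WT calls, *Lamtor3* and *Cdkn1a*, held without every single library, and 3 held after GC adjustment (*Trib3*, *Mthfd2* and *Cdkn1a*).

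Of the 8 other genes listed with the Rag GTPases and the Ragulator that anchors them, *Slc38a9* included, 1 rose. *Lamtor3*, a Ragulator subunit, was at 44.7 to 52.0 CPM with vehicle and at 60.7 to 74.8 CPM with PF in WT BMDMs (log2 fold change 0.55, SE 0.0948, adjusted p = 0.00292), and the GC-adjusted value was 0.23 (adjusted p = 0.0612). Of the 16 tested genes of GATOR, KICSTOR and the nutrient sensors, 1 rose, the leucine sensor gene *Sar1b* (0.59), and 2 fell, the GATOR2 gene *Wdr24* (-0.36) and the arginine sensor gene *Castor2* (-0.41). Among the 3 other mTORC1 subunits, *Mlst8* fell by 0.26 (adjusted p = 0.0424), and of the 2 other TSC and *Rheb* genes and the 3 mTORC2 subunits 0 passed (0 and 1 at an unadjusted p below 0.05).

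Of 11 effectors of mTORC1 only *Eif4e*, the cap-binding factor, passed, with a rise of 0.53 (adjusted p = 0.0128). Its GC-adjusted value was 0.10 (adjusted p = 0.654). In the PI3K and AKT input, *Pik3cb* rose by 0.37 and *Pik3cd*, the leukocyte isoform, fell by 0.33, of 11 tested. Among 12 genes for ATF4 and its targets, *Trib3*, a stress-induced pseudokinase, had 9.78 to 10.5 CPM with vehicle and rose to 13.2 to 18.1 CPM with PF (log2 fold change 0.66, adjusted p = 0.0149), and *Mthfd2* rose by 0.39. Among 9 p53 targets, *Cdkn1a*, the cell cycle inhibitor p21, was at 238 to 271 CPM with vehicle and fell to 165 to 204 CPM with PF (-0.45, SE 0.0914, adjusted p = 0.00696), and *Bbc3* (-0.39) and *Phlda3* (-0.80) also fell. These were 33.3% of the list, against 15.9% of all tested genes. Of the 9, 6 had negative and 3 positive log2 fold changes. The positive genes, *Trp53inp1* (0.61), *Ccng1* (0.37) and *Mdm2* (0.36), did not pass. Of 9 HIF1 targets *Ero1a* rose by 0.63, and of 7 glucocorticoid receptor targets *Dusp1* and *Per1* fell (-0.46 and -0.40). Among the calls named in this paragraph only those of *Trib3*, *Mthfd2* and *Cdkn1a* held after GC adjustment.

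**Figure D5:**
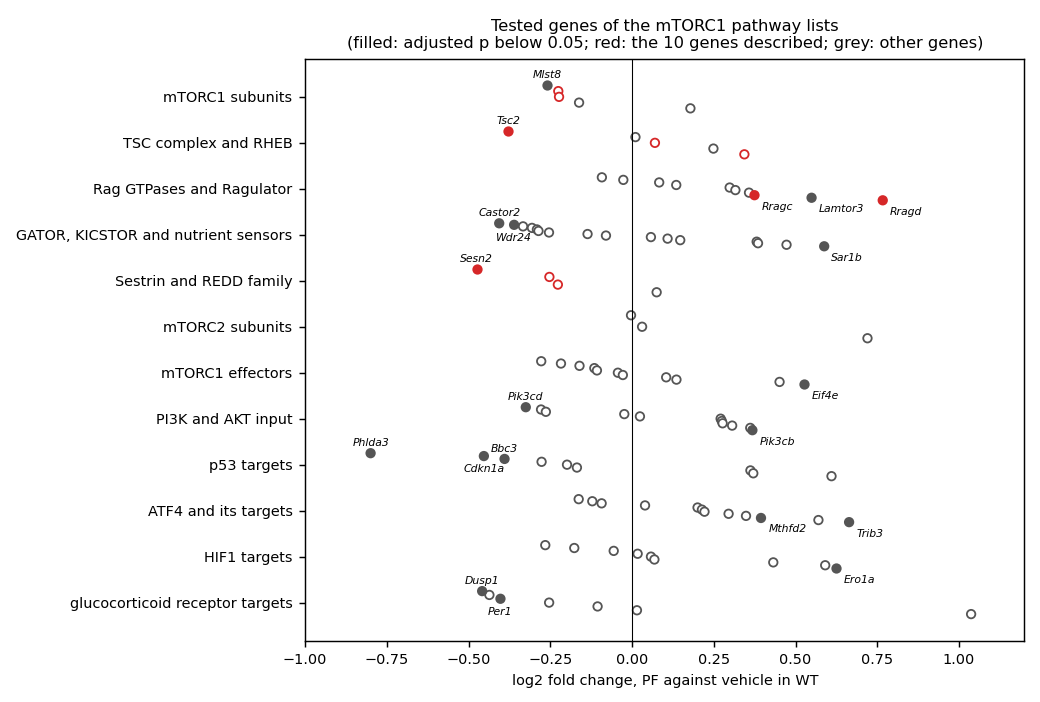
Log2 fold change of PF against vehicle in WT (x axis) for every tested gene of the pathway lists (rows), red for the 10 genes described and grey for the other 92, filled and named where the adjusted p was below 0.05. Filled points lie on both sides of 0, from -0.80 for Phlda3 to 0.77 for Rragd.

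Between the genotypes with vehicle, 57 of the 92 genes were called (25 higher and 32 lower in AMPKβ1-/- BMDMs), 62.0% against 59.7% of all tested genes, and 37 of the 92 after GC adjustment. The gene for the mTORC2 subunit rictor was at 3.10 to 6.47 CPM in WT and 13.7 to 16.7 CPM in AMPKβ1-/- BMDMs (*Rictor*, log2 fold change 1.69, adjusted p = 0.000164). *Phgdh*, the first enzyme of serine synthesis, was lower, at 19.7 to 24.4 CPM in WT and 7.63 to 8.48 CPM in AMPKβ1-/- BMDMs (-1.48, adjusted p = 9.59e-06). Both remained called after GC adjustment, at 0.54 and -1.04. *Rps6kb1*, the gene of the mTORC1 substrate S6K1, was called at 1.42, but its GC-adjusted difference was 0.01 (adjusted p = 0.975), and *Sesn3*, the remaining sestrin, went from 0.77 (adjusted p = 0.00602) to -0.04 (0.943). With PF, 51 of the 92 were called (23 higher and 28 lower), 55.4% against 47.1% of all tested genes.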

How the data were processed

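BMDM RNA was sequenced from 4 groups of 3 libraries, WT or AMPKβ1-/-, with vehicle or PF. The authors trimmed reads with Trim Galore, quantified transcripts with Salmon and used DESeq2 for their own tests, and the deposited values are Salmon's estimated counts per gene as whole numbers, without normalization (12960 genes). Genome build, tool versions and bias options are not given in the sources used here. Groups were read from the column names, and 0 columns per sample were left unused.

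Tests were run with edgeR 4.0.16 under R 4.3.3 (quasi-likelihood test, robust, TMM, low-count filter by group, 10822 genes), in 1 fit to the 12 libraries, with Benjamini-Hochberg adjustment over the tested genes and a call at an adjusted p below 0.05. Approximate SE come from dividing each log2 fold change by the root of its F value, and 95% intervals use edgeR's moderated degrees of freedom. Library totals ran from 8935609 to 14358180, and the floor of 3 counts covers counting error only. Coordinates, GC content and length come from GENCODE M21 (GRCm38), where 12703 symbols matched directly, 194 by an older symbol and 63 not, and promoters come from RefSeq on GRCm38.p6. The build is the reference's own, and no coordinate of the authors was converted. The GC adjustment subtracts natural splines of 5 degrees of freedom in GC content and length, per library. Strand-specific libraries were made, but how strand and shared reads of paralogs were treated in counting is not given in the sources used here. The paralog pairs and the genes whose interval overlaps another gene carry that uncertainty. Tsc2 overlaps Pkd1, the only such gene among the counts. Overlaps with genes outside the counts include Gm12981 with Sesn2 (6089 bases, same strand), and Rptoros with Rptor (13554) and Angptl7 with Mtor (5278), both on the opposite strand.

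In place of TMM, counts were scaled by upper quartiles, by library size alone or by the size factors of DESeq2. The filter was dropped or set to at least 10 counts in all libraries. DESeq2 1.42.0 and limma-voom (limma 3.58.1) replaced the test. A replicate block, the GC adjustment, fits to only the 6 libraries compared, and fits without each library were also run. Named genes are the 10 genes in every comparison, up to 4 called genes per pathway list and direction, the 3 genes most correlated with each of the 3 of the 10 with the smallest p, and Prkab1. For the genotypes under PF the lists are given as counts only, and results for some single genes are not reported here. The 10 genes, the lists and the tests were chosen with earlier results of these data known.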

Additional observations from a re-analysis of the deposited data

How the results depend on the processing

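Of 160 recomputed values of the 10 genes that passed the threshold in the main test, 143 stayed past it, 17 did not, and 0 changed sign. Over all 844 recomputed values of these genes 34 changed sign, each of a gene that had not passed. Of 1038 values of the other named genes 879 stayed past the threshold, 144 did not and 15 changed sign. Where no cause is stated below, the cause was not tested.

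With scaling by library size alone the median log2 fold change of all tested genes shifted by 0.209 between genotypes with vehicle and by 0.147 with PF. The share of calls that were higher went from 43.8% to 64.0% for PF in WT, from 49.7% to 72.9% between genotypes with vehicle and from 51.3% to 71.7% with PF. Signs then reversed for Mtor (0.00544) and Rptor (0.00573) for PF in AMPKβ1-/-, for Mtor (0.00823), Rragd (0.034) and Lamtor2 (0.0106) between genotypes with vehicle, where Rragc also became called (0.271, adjusted p = 0.00955), and for Rptor (0.0493) and Tsc1 (0.0302) between genotypes with PF. Scaling by library size alone, at least 10 counts in every library, and the replicate block each gave 0 genes called for PF in AMPKβ1-/- BMDMs in place of 6, whereas DESeq2 gave 48, limma-voom 27 and the contrast alone 62. For the interaction DESeq2 gave 179 genes in place of 45 and 1 of the other pathway genes in place of 0.

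GC adjustment gave, for PF in WT, 2 of the 10 genes in place of 4, 796 of all genes in place of 1725 and 6 of the other pathway genes in place of 16, with Mtor at 0.0131 and Rptor at 0.0554. For PF in AMPKβ1-/- it gave 3 genes, with Rptor at 0.0061, and for the interaction 181 genes, with Mtor at 0.0184 and Rptor at 0.0493. Between genotypes with vehicle it gave 5 of the 10 genes in place of 3, 3696 of all genes in place of 6465 and 37 of the other pathway genes in place of 57. There Tsc1 was at -0.0925, Rragc at -0.0263, Sesn2 at 0.0936, Ddit3 at 0.013, Seh1l at -0.147, Sar1b at -0.259, Ero1a at -0.229, Bnip3 at -0.153, Eif4e at -0.779, Deptor at -0.0286, Mlst8 at 0.00805, Bax at 0.00461, Pik3ca at -0.28, Lamtor1 at 0.0225, Lamtor4 at 0.0774, Lamtor2 at 0.241 and Sesn3 at -0.0377, each opposite in sign to the unadjusted value. With PF it gave 8 of the 10 genes in place of 3 and 4108 of all genes in place of 5094, with Mtor at -0.24 and Ddit4 at 0.0695.

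A fit to the libraries of the contrast alone gave, for PF in WT, 2 of the 10 genes (Rragc and Rragd), 419 of all genes and 4 of the other pathway genes, with fewer residual degrees of freedom. The numbers 1 to 3 of the libraries are names, not a stated pairing, and correlations of same-numbered libraries' deviations ranged from -0.17 to 0.32. With the numbers as a replicate block 4 of the 10 genes were called for PF in WT, 0 for PF in AMPKβ1-/-, 0 in the interaction, and 4 and 4 between genotypes with vehicle and with PF. In the main fit 15.9%, 0.0554%, 0.416%, 59.7% and 47.1% of all tested genes were called, in the same order. Apart from PF in AMPKβ1-/-, the shares in the block fit are not reported here, so its counts of the 10 genes have no background beside them.

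Leaving out 1 library at a time gave, for PF in WT, 1 to 7 of the 10 genes (1 without WT vehicle library 1 or without WT PF library 3, 2 without WT PF library 2, 7 without WT PF library 1), 346 to 3243 of all genes and 3 to 32 of the other pathway genes. It gave 0 to 6 of all genes for PF in AMPKβ1-/-, and 5 to 284 of all genes and 0 to 2 of the other pathway genes in the interaction. Between genotypes with PF it gave 3 to 5 of the 10 genes and 3910 to 5452 of all genes. Ranges that crossed 0 were, for PF in WT, Ddit4 (-0.566 to 0.0401) and Tsc1 (-0.00254 to 0.163). For PF in AMPKβ1-/- they were Ddit4 (-0.334 to 0.392), Mtor (-0.0709 to 0.0735), Rptor (-0.0709 to 0.0364), Sesn1 (-0.00969 to 0.198) and Tsc2 (-0.164 to 0.018). For the interaction the range of Ddit4 did (-0.651 to 0.0821), between genotypes with vehicle that of Tsc1 (-0.0619 to 0.104), and with PF those of Ddit4 (-0.612 to 0.12), Mtor (-0.0443 to 0.0964) and Sesn2 (-0.0136 to 0.237). Ddit4 had 6 to 18 counts per library.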
